A study of Mus musculus with 4 samples.

Results

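Endothelial BMP and TGF-β signalling was read through 10 genes, listed by name with no threshold on their values: the receptors Eng, Acvrl1, Bmpr2 and Tgfbr2, the signal carrier Smad1, the inhibitory SMADs Smad6 and Smad7, and the target genes Id1, Id2 and Id3. These are 10 of the 24421 genes in the count table, and they hold 3006 of the 1205261 rows of the table of candidate editing sites. Endothelial cells (ECs) came from the lungs of 2 male C57/BL6 mice of 2 weeks, from independent litters. Both mice carried the inducible ADAR1 knockout (i-KO), in which Cre, once activated by 4-OH-tamoxifen (TM), cuts out the floxed end of Adar, the gene of the RNA-editing enzyme ADAR1. The cells were selected on CD31 and ICAM-2 and grown in culture. Cultured cells of each mouse were either given TM (EC1 TM, EC2 TM) or left untreated (EC1 CON, EC2 CON). All 4 libraries thus shared the floxed allele and the Cre, n was 2 per group, and the groups were paired by mouse. No library came from a TM-treated culture without the floxed allele, so in these data an effect of TM itself and one of losing ADAR1 cannot be told apart, and the promoter of the inducible Cre is not given in the sources used here.

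In ECs, ligands of the BMP family bind pairs of type I and type II receptors, among them ALK1 (the product of Acvrl1) and BMPR2, and endoglin (Eng) presents the ligand to them. The type I receptor phosphorylates SMAD1 and its relatives, which enter the nucleus with SMAD4 and switch on targets such as the Id genes, whose proteins block basic helix-loop-helix transcription factors. TGF-β instead binds TGFBR2, which acts mainly through SMAD2 and SMAD3, and SMAD6 and SMAD7 are induced by the pathway and turn it down. Inherited loss of ENG or ACVRL1 underlies hereditary haemorrhagic telangiectasia, and that of BMPR2 underlies heritable pulmonary arterial hypertension.

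Total RNA depleted of ribosomal RNA was sequenced, and RNA level was read in 2 ways. Where 4 values follow each other, they are CON then TM of EC1, followed by CON then TM of EC2. The first was the deposited count per gene, compared with edgeR's quasi-likelihood test. Counts on genes came to 1095488 (CON) and 1096152 (TM) in EC1 and 1222301 and 1778732 in EC2. Genes thus took between 0.823% and 0.858% of a library's reads in the table, most of which fell on no gene. The second was the exonic depth, the median number of reads over the exonic positions (coding exon, 5′ UTR or 3′ UTR) that the site table lists for a gene in a library, scaled per 100000000 reads of the library's table and compared with limma on the log2 scale. A library lists a position only where it holds an altered base, so the positions differ between libraries. The 2 readouts were far apart in size. In EC1 CON the median listed exonic position of Eng was covered by 5940 reads, while the count for the whole gene was 321. The count of Eng thus left out most of the reads that lay over its exons. The counting kept to 1 strand, the tool's default, and whether that strand was the genes' own in these libraries was not tested. How far the counts follow the RNA level of a gene was therefore not tested either. Counts of most members were below 100, and the exonic depth had more reads behind it. Both readouts come from the same libraries and are not independent of each other.

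The targeted gene was read first. Adar (chromosome 3, 89715022 to 89753446 on the plus strand, mm10) had counts of 9 (CON) and 47 (TM) in EC1 and 16 and 71 in EC2. Its scaled exonic depth was 109 (CON) and 485 (TM) in EC1 and 121 and 453 in EC2. It was thus higher in both TM libraries on both readouts, by a log2 fold change of 1.87 ± 0.45 in the counts (SE, edgeR adjusted p = 0.00609) and a log2 difference in exonic depth of 2.03 ± 0.27 (limma adjusted p = 2.83e-06). Over exons 12 to 14, inside the floxed part, the order was the opposite. The scaled depth there was 109 in EC1 CON and 118 in EC2 CON, with 3 listed positions and 1, against 31.6 in EC2 TM with 2, and EC1 TM listed none. At exon 15, also named as part of the deletion, the scaled depth was 74.4 in EC1 CON and 109 in EC2 CON against 320.2 in EC1 TM and 403 in EC2 TM, so exon 15 did not follow exons 12 to 14. The call on the Adar counts was lost in DESeq2 (adjusted p = 0.0891) and, in edgeR, without EC1 CON (0.109). Of the exonic bases of Adar 16.8% are shared with Chrnb2 on the opposite strand.

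The cells carried endothelial markers in every library. Cdh5, the gene of VE-cadherin, had a scaled exonic depth of 4730 (CON) and 4401 (TM) in EC1 and 5316 and 4979 in EC2, and all 13 endothelial markers were listed in all 4 libraries. The summed scaled depth of these 13 genes was 21122 (CON) and 17371 (TM) in EC1 and 26571 and 18641 in EC2, so it was lower in TM in both mice. The leukocyte genes Ptprc, Itgam, Cd3e and Adgre1 and the epithelial genes Epcam, Cdh1, Sftpc, Sftpb and Scgb1a1 had no listed exonic position in any library. Summed over 9 leukocyte markers the scaled depth was 36.8 (CON) and 20.9 (TM) in EC1 and 28.6 and 35.9 in EC2, led by Cd68 in all but EC2 CON, where Lyz2 led. Over 7 epithelial markers it was 35.3, 31.9, 30.7 and 40.3 in the same order, led by Krt18. The gene counts of these lists were not all near 0, with 54, 63, 50 and 53 for Csf1r, 35, 23, 29 and 31 for Cd79a and 16, 18, 12 and 14 for Sftpb, and none of the 4 markers tested on the counts was called. The summed depths of markers of fibroblasts and of smooth muscle and pericytes were lower in TM in both mice. The 7 fibroblast markers summed to 381 (CON) and 117 (TM) in EC1 and 484 and 178 in EC2, led by Dcn, which alone gave 255, 92.9, 311 and 104, as deep in CON as some members. The 8 markers of smooth muscle and pericytes summed to 219, 91.4, 471 and 147 in the same order, led by Tagln. These sums take a marker with no listed position as 0, as for Acta2 in EC1 TM. The gene counts did not follow them, with 33, 43, 33 and 55 for Acta2 and 548, 534, 553 and 761 for Tagln, and none of the 6 markers of these lists tested on the counts was called. The part of these cells in the results below was not tested, and in such bulk RNA fewer cells of a type and less RNA per cell cannot be told apart.

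Of the 10 members, Smad6 and Id2 fell in TM on the exonic depth, with both TM libraries below both CON libraries, while the receptors Eng, Acvrl1 and Bmpr2 and the genes Smad1, Smad7 and Id3 did not pass the test on either readout. Tgfbr2 and Id1 were lower in both mice on the exonic depth and missed the threshold in the fit by condition, but passed with the mouse as a replicate block. The count of members called was 2 of 10, both lower, where 11.8% of the 6836 genes tested were called and 5.44% were called lower. With the replicate block it was 4 of 10, all lower, against 19.4% of all genes, and with the depths centred on the median of all genes it was the same 4, against 21.1%. The median log2 difference of the 10 members was -0.14, beside 0.01 over all genes tested. The difference was below 0 for 8 members and above 0 for 2, where it was below 0 for 3355 of all 6836 genes tested. On the gene counts none of the 9 members tested was called by edgeR, where 7.75% of the 7899 genes tested were. None had an unadjusted p at or under 0.05, and none was called by DESeq2 or with the block. The median log2 fold change of these 9 was -0.43, beside 0.00 over all genes.

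**Figure D1:**
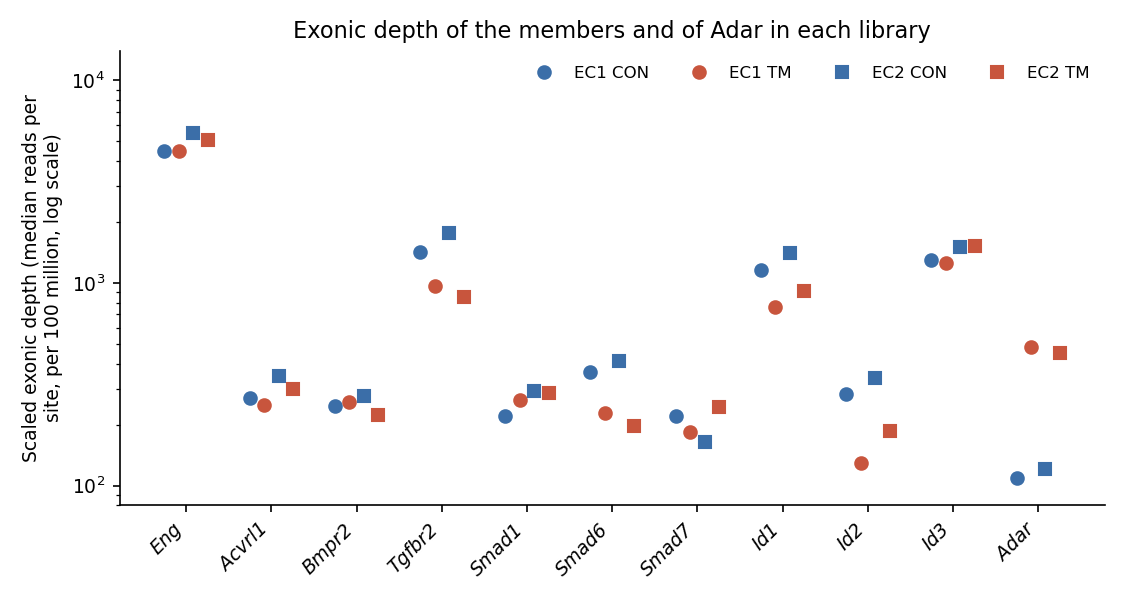
Scaled exonic depth (median reads per listed exonic position per 100000000, log axis) of the 10 members and of Adar, 1 point per library, with CON in blue, TM in red, circles for EC1 and squares for EC2. Both TM points lie below both CON points for Tgfbr2, Smad6, Id1 and Id2, the points of the other members overlap between the groups, and Adar lies higher in both TM libraries. How often genes outside this set separate in this way was not counted.

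The levels of the members fell into 3 tiers. Exonic depth counts reads at single positions, so the length of a gene does not enter it directly. The listed positions differ in number and region between genes and libraries, so the tiers hold for these positions only. Eng was by far the deepest, at a mean over the 4 libraries of 4889 scaled reads, and its lowest library (4464) was above the highest value of any other member (1758, Tgfbr2 in EC2 CON). Id3 (mean 1396), Tgfbr2 (1247) and Id1 (1059) followed, and their ranges over libraries overlapped, so that their order is not fixed by these data. The other 6 members had means of 300.4 (Smad6), 292 (Acvrl1), 267 (Smad1), 251 (Bmpr2), 235 (Id2) and 203 (Smad7). Each of these ranges overlapped that of its neighbour, and all stayed below the lowest value of Id1 (759, in EC1 TM).

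Eng (ENSMUSG00000026814, chromosome 2, 32646595 to 32682669, plus strand) encodes endoglin, the co-receptor for BMP9 and BMP10. Its scaled exonic depth was 4464 (CON) and 4477 (TM) in EC1 and 5524 and 5090 in EC2. The libraries differed more between mice than between CON and TM, and the groups overlapped. The log2 difference was -0.06 ± 0.36 (SE, adjusted p = 0.95). Over positions listed in both libraries of a mouse, 21 in EC1 and 16 in EC2, it was -0.03 and -0.13. By region the coding exons gave 4728, 4499, 5589 and 5185, but the 3′ UTR gave 4034, 4149, 4613 and 640.3, far lower in EC2 TM, which listed 20 positions there. At the 3 positions of the 3′ UTR that both EC2 libraries listed the log2 difference was -0.14, and at the 4 that both EC1 libraries listed it was -0.02. The gene counts gave another picture, with 321 (CON) and 460 (TM) in EC1 and 306 and 676 in EC2. After scaling for library size these were higher in TM in both mice, by a log2 of 0.54 in EC1 and 0.46 in EC2, which did not pass the test (0.50 ± 0.28, edgeR adjusted p = 0.327, and 0.0638 with the replicate block). Only 61 exonic bases of Eng (1.51%) are shared with a gene on the opposite strand, Fpgs.

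Acvrl1 (chromosome 15, 101128522 to 101145336, plus strand), the type I receptor that pairs with endoglin, had a scaled exonic depth of 271 (CON) and 250.4 (TM) in EC1 and 347 and 301 in EC2. Each TM library was slightly below the CON library of its mouse, and the groups overlapped. The log2 difference of -0.16 ± 0.28 did not pass the test (adjusted p = 0.794). Its counts of 26, 26, 39 and 55 in the same order gave a log2 fold change of -0.08 ± 0.41.

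Bmpr2 (chromosome 1, 59763400 to 59879014, plus strand), the type II receptor for BMPs, had no call on the depth either, with scaled values of 246 (CON) and 258 (TM) in EC1 and 277 and 223 in EC2. It was higher in TM in one mouse and lower in the other, with a log2 difference of -0.12 ± 0.27 (adjusted p = 0.843). Its counts were 63 (CON) and 33 (TM) in EC1 and 53 and 73 in EC2, lower in TM in both mice after scaling but short of the threshold (log2 fold change -0.53 ± 0.36, edgeR adjusted p = 0.448).

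Tgfbr2 (chromosome 9, 116084293 to 116175360, minus strand), the type II receptor for TGF-β, had a scaled exonic depth of 1415 (CON) and 961 (TM) in EC1 and 1758 and 856 in EC2. Both TM libraries were below both CON libraries. The log2 difference of -0.80 ± 0.30 missed the threshold in the fit by condition (adjusted p = 0.0874) and passed it with the replicate block (adjusted p = 0.0237). The coding exons alone gave 1447 (CON) and 906 (TM) in EC1 and 1791 and 913 in EC2, and the 3′ UTR alone gave 1393, 975, 1735 and 816, so both parts of the transcript had the same order. Over positions listed in both libraries of a mouse, 15 in EC1 and 27 in EC2, the log2 difference was -0.54 and -1.01, and in this fit, which also holds the block, Tgfbr2 was the only one of 4 members tested that passed, where 51.7% of all 1506 genes tested did. Its counts were 133, 119, 153 and 123, also lower in TM in both mice after scaling, with no call (log2 fold change -0.55 ± 0.32, edgeR adjusted p = 0.349).

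Smad1 (chromosome 8, 79338395 to 79399518, minus strand) carries the BMP signal to the nucleus. It had a scaled exonic depth of 221 (CON) and 266 (TM) in EC1 and 293 and 288 in EC2. The groups overlapped, and the log2 difference was 0.12 ± 0.28 (adjusted p = 0.844). Its counts of 24, 29, 57 and 41 were higher in TM in EC1 and lower in EC2 after scaling.

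Smad6 (chromosome 9, 63953076 to 64022059, minus strand), the inhibitory SMAD that acts mainly on BMP signalling, fell in TM. Scaled exonic depth was 365 (CON) and 229 (TM) in EC1 and 411 and 196 in EC2. Both TM libraries were below both CON libraries, with a log2 of TM over CON of -0.67 in EC1 and -1.07 in EC2. The log2 difference was -0.87 ± 0.28 (limma adjusted p = 0.0357, and 0.0173 with the replicate block), a level 1.83-fold lower in TM. The coding exons gave 361 (CON) and 278 (TM) in EC1 and 502 and 215 in EC2, and the 5′ UTR gave 376, 221, 411 and 182. The 3′ UTR, with 2 to 5 listed positions per library, gave 327, 42.5, 274 and 224. Only 3 positions were listed in both libraries of EC1 and 1 in both of EC2, with log2 differences of -0.44 and -0.81. The gene counts were 75, 39, 63 and 98, lower in TM in EC1 (log2 -0.92) and about level in EC2 (-0.04), with no call. The call on the depth was kept without EC1 CON (adjusted p = 0.0341) and lost without EC2 CON (0.0881), EC1 TM (0.306) or EC2 TM (0.505), and was also lost when genes with a single listed position were let in (0.0741).

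Smad7, the inhibitory SMAD that acts on both branches, went opposite ways in the 2 mice, with a scaled exonic depth of 222 (CON) and 183 (TM) in EC1 and 164 and 243 in EC2. The highest and the lowest value were those of EC2, and the groups overlapped (log2 difference 0.15 ± 0.28, adjusted p = 0.814). Its counts of 56, 39, 23 and 75 had the same pattern, with a log2 of -0.50 in EC1 and 1.02 in EC2.

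Id1 (chromosome 2, 152736251 to 152737410, plus strand), a direct target of BMP signalling, had a scaled exonic depth of 1163 (CON) and 759 (TM) in EC1 and 1400.0 and 915 in EC2. Both TM libraries were below both CON libraries, with a log2 of TM over CON of -0.62 in EC1 and -0.61 in EC2. The log2 difference of -0.61 ± 0.30 was not called in the fit by condition (adjusted p = 0.201) and was called with the replicate block (adjusted p = 0.0269). At positions listed in both libraries of a mouse, 2 in EC1 and 3 in EC2, it was -0.65 and -0.62. The counts did not follow this pattern. They were 46 (CON) and 19 (TM) in EC1 and 13 and 39 in EC2, a log2 of -1.25 in EC1 and 0.90 in EC2.

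Id2 (chromosome 12, 25093799 to 25097140, minus strand) fell in TM, with a scaled exonic depth of 284 (CON) and 130 (TM) in EC1 and 340.0 and 187 in EC2. Both TM libraries were below both CON libraries, and the log2 difference was -0.996 ± 0.28 (limma adjusted p = 0.0186, and 0.0104 with the replicate block), a level 1.99-fold lower in TM. These medians rest on 6, 3, 9 and 10 listed positions, which were spread differently over the transcript. The coding exons gave 316 in EC1 CON, 432 in EC2 CON and 301 in EC2 TM, and EC1 TM listed no position there, while the 3′ UTR, which was shallower in all 3 libraries that list both, gave 217, 126, 274 and 170.3. One 3′ UTR position could be read in all 4 libraries, since nearly every read there carried the altered base. At this position (chr12:25094206) between 99.3% and 99.7% of reads were altered, and the depth was 289 reads (CON) and 161 (TM) in EC1 and 349 and 384 in EC2, or 217, 122, 243 and 185 after scaling. TM was lower there in both mice, with a log2 of -0.83 in EC1 and -0.39 in EC2. The counts of 4, 3, 6 and 3 were left out by the edgeR filter and were not called by edgeR without the filter. DESeq2 gave a log2 fold change of -1.05 ± 1.57 for Id2 and no adjusted p. The call on the depth was kept without EC1 CON (adjusted p = 0.0156) and lost without EC2 CON (0.0763), EC1 TM (0.558) or EC2 TM (0.086), and also with genes of a single listed position let in (0.0691).

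Id3 (chromosome 4, 136143497 to 136145755, plus strand), the third Id gene of the set, did not share this drop, at a scaled exonic depth of 1297 (CON) and 1262 (TM) in EC1 and 1510 and 1517 in EC2. The CON and TM library of each mouse were nearly level, with a log2 difference of -0.02 ± 0.31 (adjusted p = 0.982), and over 5 shared positions in each mouse it was 0.02 and 0.03. Its counts of 33, 21, 33 and 39 were lower in TM in both mice after scaling, with no call (log2 fold change -0.52 ± 0.42, edgeR adjusted p = 0.541). The difference between Id2 and Id3 was not itself tested.

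**Figure D2:**
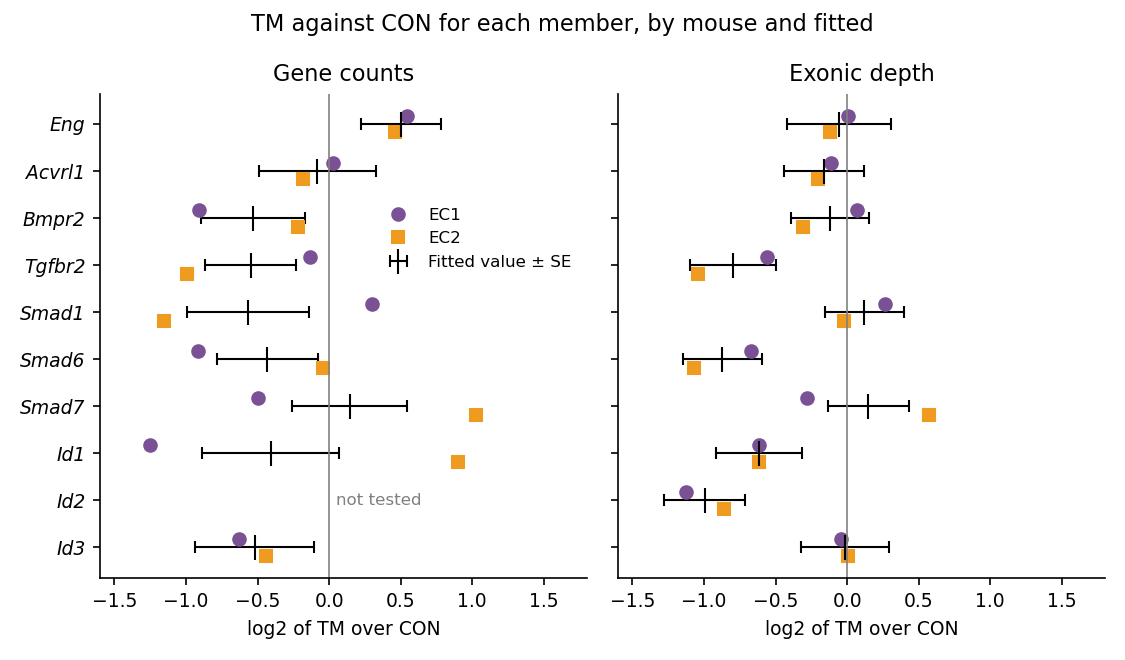
Log2 of TM over CON for each member in EC1 (purple circles) and EC2 (orange squares), with the fitted value and its SE in black, for gene counts (left) and exonic depth (right). On the exonic depth both mice lie below 0 for Acvrl1, Tgfbr2, Smad6, Id1 and Id2, while on the gene counts the mice lie on opposite sides of 0 for Acvrl1, Smad1, Smad7 and Id1.

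The promoters of Smad6 and Id2, which fell, and of Id3, which had no call, are given for comparison, from RefSeq on GRCm38.p6. Each holds the 250 bases up to the gene's RefSeq start, 5′ to 3′ on the gene's strand. For Id2 and Id3 this start differs from that of the gene span given above, which is from GENCODE, and their windows lie inside that span. Capitals mark letters found by a search of both strands for GGCGCC (the core of the BMP response element of Id genes), GTCTAGAC (a palindrome bound by SMADs) and GAAANNGAA (the core of the interferon-stimulated response element). Of the 3 motifs none overlaps another in these windows.
Smad6 chr9:64022060-64022309 (minus strand): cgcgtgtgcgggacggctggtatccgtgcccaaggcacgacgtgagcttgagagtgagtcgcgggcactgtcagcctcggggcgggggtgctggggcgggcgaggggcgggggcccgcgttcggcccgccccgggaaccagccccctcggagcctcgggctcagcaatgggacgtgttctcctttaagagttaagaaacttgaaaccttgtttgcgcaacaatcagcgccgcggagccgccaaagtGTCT
Id2 chr12:25096093-25096342 (minus strand): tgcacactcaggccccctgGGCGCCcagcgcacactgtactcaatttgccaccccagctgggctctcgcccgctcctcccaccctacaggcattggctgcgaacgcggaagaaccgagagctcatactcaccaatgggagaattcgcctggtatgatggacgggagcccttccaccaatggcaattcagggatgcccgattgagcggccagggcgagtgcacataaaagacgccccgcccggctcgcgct
Id3 chr4:136143572-136143821 (plus strand): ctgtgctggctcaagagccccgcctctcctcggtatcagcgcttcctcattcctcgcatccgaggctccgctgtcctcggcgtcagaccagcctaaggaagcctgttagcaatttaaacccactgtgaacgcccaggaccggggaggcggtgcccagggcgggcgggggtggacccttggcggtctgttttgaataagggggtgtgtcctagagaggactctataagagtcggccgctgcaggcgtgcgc

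The Smad6 window ends in the first letters of GTCTAGAC, which begins 4 bases before the start and runs past it. This motif is rare, with 0.213% of the 32851 promoters in the table holding it between 250 bases before and 50 after the start. Id2 holds GGCGCC 231 bases before its RefSeq start, and Bmpr2, which had no call, holds it 105 bases before its own. Both matches lie inside the GENCODE spans given above for these genes. That motif was found in 11.9% of promoters. GAAANNGAA was found in 8.56% of promoters and in none of the 7 members whose promoter was searched, which were Eng, Bmpr2, Tgfbr2, Smad1, Smad6, Id2 and Id3. These matches describe the letters in the windows.

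The wider pathway was read through 67 further genes in 5 roles. On the gene counts 40 were tested and 3 rose, which is 7.5% beside 7.75% of all genes, and the median log2 fold change was 0.13. On the exonic depth 42 were tested, 3 rose and 2 fell, which is 11.9% beside 11.8% of all genes, with a median of -0.05. These shares were close to the background. With the replicate block 8 were called on the counts, 6 higher and 2 lower, where 15.0% of all genes were, and 12 on the depth, 7 higher and 5 lower, where 19.4% were. The depths of all genes showed 809 calls, 54.0% of them higher, and 1442 when centred on the median, 39.4% of them higher. The same centring gave 11 calls in the pathway list, 5 higher and 6 lower.

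The genes that rose by condition were Snai2, Zeb2 and Ltbp1. Snai2, a transcription factor of epithelial-to-mesenchymal transition induced by TGF-β, had a scaled exonic depth of 45.8 (CON) and 428 (TM) in EC1 and 82.2 and 376 in EC2, and counts of 3, 22, 1 and 19. It was higher in both TM libraries on both readouts, with a log2 difference in depth of 2.71 ± 0.30 (limma adjusted p = 5.61e-08) and edgeR adjusted p = 0.0131 on the counts. Zeb2, a transcriptional repressor that drives the same transition and also binds SMADs, rose in scaled depth from 68.4 to 155 in EC1 and from 72.1 to 145 in EC2 (log2 difference 1.09 ± 0.28, limma adjusted p = 0.00834), with counts of 26, 75, 27 and 109. Ltbp1, a matrix protein that holds latent TGF-β, rose from 43.6 to 160.1 in EC1 and from 54.3 to 159 in EC2 (1.71 ± 0.29, limma adjusted p = 7.49e-05), with counts of 15, 34, 6 and 77. These same 3 genes made up the calls on the gene counts. In DESeq2 none of the 3 was called (adjusted p = 0.183, 0.0891 and 0.106 for Snai2, Zeb2 and Ltbp1), and Thbs1 was the only pathway gene called there (0.039). The depth calls of Snai2 and Ltbp1 were kept without any 1 library, while that of Zeb2 was lost without EC1 TM (0.174) or EC2 TM (0.0964). On the counts Snai2 was lost without EC2 CON (0.156), EC1 TM (0.403) or EC2 TM (0.0545), Zeb2 without EC1 CON (0.104) or EC2 CON (0.0695), and Ltbp1 without EC2 CON (0.113) or EC2 TM (0.0748).

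Among receptors and co-receptors Tgfbr3 fell. It encodes betaglycan, the co-receptor that presents TGF-β2 to TGFBR2. Its scaled exonic depth was 145 (CON) and 48.6 (TM) in EC1 and 188 and 48.0 in EC2, and its counts of 11, 5, 10 and 2 were left out by the edgeR filter and not called by DESeq2 (adjusted p = 0.795). Both TM libraries were well below both CON libraries, by a log2 difference of -1.77 ± 0.29 (limma adjusted p = 4.81e-05), a level 3.42-fold lower. This was 1 of 4 receptors tested, where 11.8% of all genes were called. Acvr1, the next deepest, was at 102 (CON) and 95.6 (TM) in EC1 and 113 and 113 in EC2, and was not called.

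The other fall was that of Tob1, an antiproliferative protein that restrains BMP signalling by binding SMADs. Its scaled depth was 112 (CON) and 50.8 (TM) in EC1 and 128 and 69.7 in EC2 (log2 difference -1.005 ± 0.29, limma adjusted p = 0.021), a call lost without EC2 CON (0.0904), EC1 TM (0.428) or EC2 TM (0.0599). The call of Tob1 was also lost when genes with a single listed position were let in (limma adjusted p = 0.0843). Of 18 inhibitors and regulators tested on the depth, Ltbp1 rose, Tob1 fell and 16 were not called (11.1% called, where 11.8% of all genes were). The deepest of them, Fkbp1a, whose product FKBP12 keeps type I receptors silent, was at 2394 (CON) and 2377 (TM) in EC1 and 3631 and 3133 in EC2. Fstl1, a secreted BMP antagonist, was at 1043 (CON) and 742 (TM) in EC1 and 1425 and 839 in EC2. It was lower in TM in both mice, was not called by condition (adjusted p = 0.194) and was called with the replicate block (0.0315).

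The ligands had no call in the main fit by condition. Of 3 tested on the depth, all had a difference below 0, with a median of -0.59. Of 6 tested on the counts, 4 were below 0 and 2 above. Among ligands with too few positions for the depth test, Tgfb2, Tgfb3 and Inhbb were lower in TM in both mice, and Bmp2 and Inhba higher. Inhba was at 47.3 (CON) and 116 (TM) in EC1 and 52.3 and 157 in EC2. It was called higher when genes with a single listed position were let in. Tgfb1, the deepest ligand, was at 1842 (CON) and 1396 (TM) in EC1 and 2406 and 1398 in EC2, and Bmp4 at 462, 268, 852 and 455 in the same order. Neither was called by condition (adjusted p = 0.255 for Tgfb1 and 0.0832 for Bmp4), and both were with the block (0.0479 and 0.0112) or with centred depths (0.0165 and 0.0477). Bmp4 was also called with at least 10 sites (0.023), with sites of at least 10 reads (0.0374), with the mean of log2 depth (0.00859) and without EC1 CON (0.00658), and its log2 difference ran from -1.29 without EC1 CON to -0.40 without EC2 CON. Counts of Gdf2, the gene of BMP9, were 0 in all 4 libraries, and those of Bmp10 were at most 2.

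None of the 4 other SMADs tested was called by condition. Smad4, the shared partner of all receptor-regulated SMADs, had a scaled depth of 178 (CON) and 325 (TM) in EC1 and 201 and 267 in EC2, higher in TM in both mice and called with the block (adjusted p = 0.0494) and not by condition (0.139). Smad2, which carries the TGF-β signal, was at 113, 178, 187 and 149, higher in TM in EC1 and lower in EC2.

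Of 13 targets tested on the depth, Snai2 and Zeb2 rose and 11 were not called (15.4% called, where 11.8% of all genes were). Their median was 0.44, beside 0.01 over all genes, with 10 differences above 0, where 3481 of all 6836 genes tested had one. The 2 deepest were Fn1 (fibronectin), at 12584 (CON) and 11280 (TM) in EC1 and 14579 and 12340 in EC2, and Thbs1 (thrombospondin 1), at 2997, 4609, 4166 and 4970 in the same order. Thbs1 was higher in TM in both mice, and its counts of 373, 625, 368 and 1092 were not called in the fit by condition (edgeR adjusted p = 0.0644), and were called with the replicate block (2.68e-04) or with at least 10 counts asked of every library (0.0345).

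On the exonic depth 12 of 13 endothelial markers had a difference below 0, where 3355 of all 6836 genes tested did. The median of the 13 was -0.42, and 1 of them, Cldn5 (claudin 5, a tight junction protein), was called lower (1 of 13, where 11.8% of all genes were called). It went from 2236 to 909 in EC1 and from 3015 to 739 in EC2 (log2 difference -1.66 ± 0.31, limma adjusted p = 3.66e-04). With the block 6 of 13 were called, where 19.4% of all genes were. On the gene counts 6 of 11 tested were below 0 and 5 above, with a median of -0.15, and 1 was called lower, Cldn5 (edgeR adjusted p = 0.0176). DESeq2 did not call Cldn5 (adjusted p = 0.171). Of 4 lymphatic endothelial markers Prox1 alone was called lower on the depth (1 of 4, where 11.8% of all genes were called). It went from 459 to 165 in EC1 and from 559 to 175 in EC2 (limma adjusted p = 1.43e-04). The part of these marker changes in the values of the members was not tested.

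**Figure D3:**
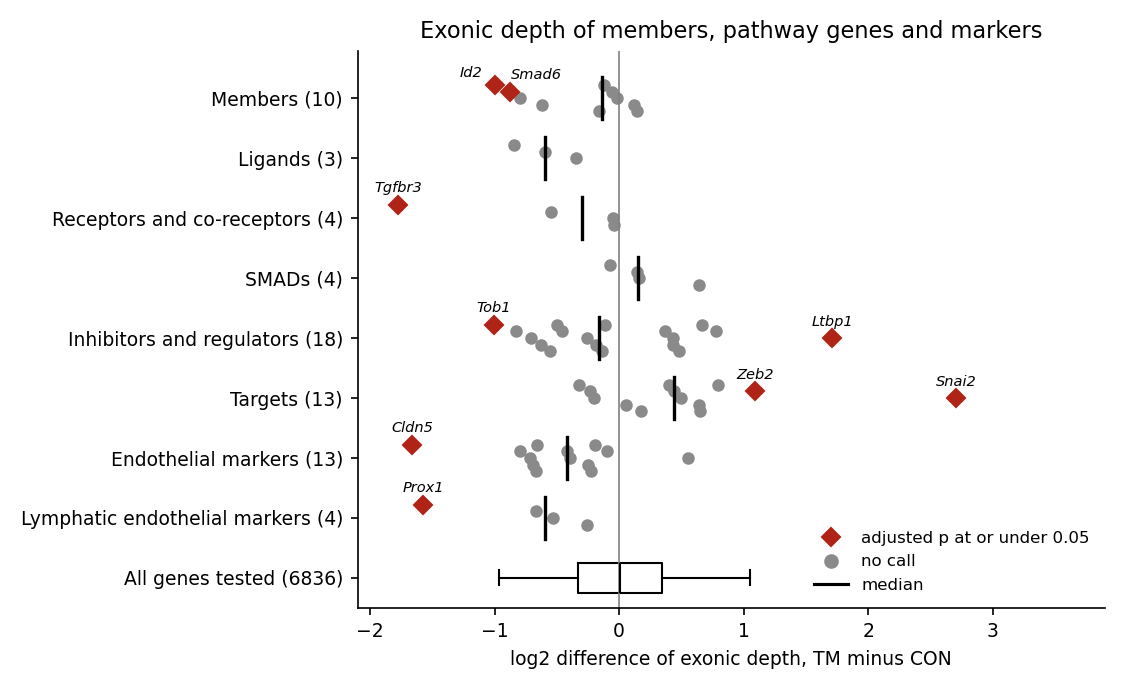
Log2 difference of exonic depth (TM minus CON) of each gene tested, by group, with the number tested in brackets, red diamonds for adjusted p at or under 0.05, a black bar for the group's median, and a box for all genes (whiskers from the 5th to the 95th percentile). The named calls are Id2 and Smad6 among the members, Tgfbr3, Tob1, Ltbp1, Zeb2 and Snai2 in the pathway list, and Cldn5 and Prox1 among the markers.

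The gene of the pathway list whose depth profile over the 4 libraries lay nearest to that of a member was found by Euclidean distance of centred log2 depth, among 42 candidates. For Eng it was Smad5, at a distance of 0.0446, and for Id3 it was Acvr1, at 0.062. None of these 4 genes was called, and all were deeper in EC2 than in EC1. For Id2 it was Tob1, at 0.0689, and both fell. For Id1 it was Fstl1, at 0.145, and both were lower in TM in each mouse. A profile of 4 libraries holds few values, so such nearness describes these libraries only.

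Editing in the members was read at A-to-G changes on the gene's strand, after the study's first limits: a site passed in a library where 5 or more reads covered it, 3 or more of them were altered and the altered fraction lay between 0.05 and 0.95. To lessen the part of genomic variants, the study then took as reliable only sites whose rate differed between CON and TM of a mouse. That step was not applied here, so a site that passed can also be a variant of the genome. Of the 3006 rows of the members, 30 passed in at least 1 library, and these lay in Eng, Acvrl1, Bmpr2, Tgfbr2 and Smad6. Smad1, Smad7, Id1, Id2 and Id3 had none. All but 1 were intronic, the exception lying in the 3′ UTR of Bmpr2, and 19 lay in short interspersed elements (SINEs), 15 of them of the B1 family. The number that passed was 19 (CON) and 7 (TM) in EC1 and 14 and 14 in EC2, lower in TM in EC1 and the same in EC2, where the TM library was the deepest of the 4. By group, 15 sites passed in CON only, 4 in TM only and 11 in both. Pooled over the sites that passed in either library of a mouse, 444 of 2475 reads were altered in CON (17.9%, 95% Wilson interval 16.5% to 19.5%) and 228 of 1818 in TM (12.5%, 11.1% to 14.1%). The rate was 19.3% (CON) and 15.0% (TM) in EC1 and 16.0% and 11.0% in EC2. These pools cannot be read as a difference on their own, since a site entered by its altered reads and more sites entered through CON than through TM. The EC1 pool also held an intronic Smad6 site (chr9:63968612), named after its values were seen, where 64 of 64, 16 of 17, 17 of 17 and 13 of 13 reads were altered. Without it EC1 was at 15.6% (13.8% to 17.6%) in CON and 13.1% (10.7% to 15.8%) in TM. Over the sites that passed in both libraries of a mouse, also without it, the rate was 23.8% (CON) and 23.4% (TM) at 5 sites in EC1 and 19.6% and 13.1% at 9 sites in EC2. At these sites CON and TM were nearly level in EC1 and TM was lower in EC2. This set leaves out every site that passed in CON and not in TM, such as the Bmpr2 3′ UTR site in EC1. It therefore cannot show editing that was lost in TM. Such intervals cover counting error only, and no test across mice was made with n = 2.

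The edited position in the 3′ UTR of Bmpr2 is the only exonic one of the members. It lies in exon 13 of 13, in a B2_Mm2 element at chr1:59874208 (mm10, plus strand), and is printed with 14 bases of the GENCODE transcript on either side, the edited A in capitals.
Bmpr2 chr1:59874194-59874222: tcatatccccctatAgatggttgtgagcc

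Its rate was 24 of 193 reads in EC1 CON (12.4%, 95% Wilson interval 8.50% to 17.8%), 8 of 173 in EC1 TM (4.62%, 2.36% to 8.86%), 35 of 276 in EC2 CON (12.7%, 9.26% to 17.1%) and 21 of 292 in EC2 TM (7.19%, 4.75% to 10.7%). It was lower in TM in both mice. Fisher's exact test on the reads, 2-sided and within a mouse, gave p = 0.00914 in EC1 and 0.0343 in EC2, which became 0.16 and 0.4 after adjustment over the 35 tests made in the members. Such a test compares a pair of libraries and not the conditions. The exonic depth of Bmpr2 itself was not called, as given above.

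The deepest intronic site lay in a B3 element of Eng (chr2:32676992). There 31 of 252 reads were altered in EC1 CON (12.3%), 21 of 153 in EC1 TM (13.7%), 46 of 154 in EC2 CON (29.9%) and 27 of 188 in EC2 TM (14.4%). EC2 CON stood above the other 3 libraries. The difference within EC2 was the only 1 of the 35 that passed adjustment (Fisher's exact p = 0.000558, adjusted 0.0195), and EC1 did not share it (p = 0.76). Another intronic site of Eng, outside repeats (chr2:32651600), had altered reads more often, at 40.8% (CON) and 45.2% (TM) in EC1 and 41.8% and 31.0% in EC2, over 55 to 98 reads. Its rate was higher in TM in EC1 and lower in EC2. Whether the altered reads there came from editing or from a variant of the genome was not tested.

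In Smad6 a pair of sites 12 bases apart in a B1_Mus2 element (chr9:63987506 and chr9:63987518) held altered reads in every library. The first was at 35.4% (CON) and 34.8% (TM) in EC1 and 19.2% and 23.7% in EC2, and the second at 26.0%, 13.6%, 9.09% and 8.11%. The first differed more between the mice than between CON and TM, and the second was highest in EC1 CON, over 22 to 99 reads. In Acvrl1 the B1_Mus2 site chr15:101142269 was at 18.5% (CON) and 15.8% (TM) in EC1 and 38.1% and 26.7% in EC2, and the B1_Mur1 site chr15:101142077 at 35.3%, 18.2%, 31.8% and 28.6%. Both were lower in TM in both mice over 11 to 27 reads, and none of these differences passed Fisher's exact test (unadjusted p between 0.419 and 1). The B1_Mur2 site of Eng (chr2:32663784) went the other way, at 1.83% (CON) and 5.71% (TM) in EC1 and 1.30% and 5.00% in EC2, and passed the limits in TM only. The intronic Bmpr2 site chr1:59868618 was at 18.5%, 8.33%, 13.6% and 18.5%. The remaining deep sites, in introns of Eng at chr2:32648912 and chr2:32674146, were at most 7.41% edited.

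**Figure D4:**
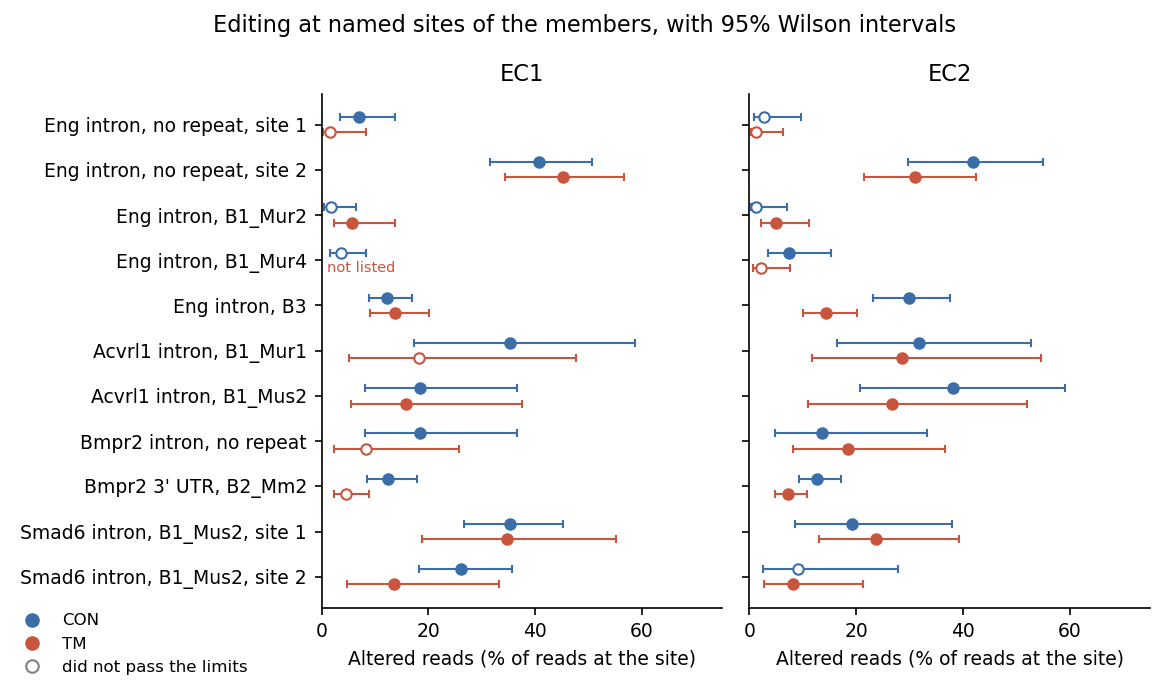
Share of altered reads (percent, with 95% Wilson intervals) at the 11 named sites of Eng, Acvrl1, Bmpr2 and Smad6 in EC1 (left) and EC2 (right), CON in blue and TM in red, open symbols where a site did not pass the limits. At the Bmpr2 3′ UTR site CON lies above TM in both mice, at 12.4% and 12.7% against 4.62% and 7.19%, with intervals that overlap at their edges, and the intervals of CON and TM are separate at the B3 site of Eng in EC2 (23.2% to 37.5% against 10.1% to 20.1%).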

How the data were processed

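Per the labels and methods, the authors used Trimmomatic 0.38, STAR 2.6.1a (mm10) and HTSeq 0.11.2, and deposited raw counts per gene. All tools ran at default settings per the methods, and by default HTSeq counts only reads on the strand it takes as the gene's. Whether this fits the strand of these libraries was not tested, and the annotation of the counting is not given in the sources used here. The rows for reads on no gene (92.8% to 93.9%) and for alignments that were not unique (5.29% to 6.32%) were left out. For the sites, the authors ran BCFtools on each library and deposited read numbers and the altered fraction, which is 0 where a library does not list the site.

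Gene counts were fitted with edgeR 4.0.16 (filterByExpr, TMM, quasi-likelihood, condition only), with DESeq2 1.42.0 as an alternative. Exonic depth was fitted with limma 3.58.1 (trend) for genes with at least 3 listed exonic sites in every library. P-values were Benjamini-Hochberg adjusted over all genes tested, at 0.05, in R 4.3.3. A count of 0 allows 3 counts, or between 1.69 and 2.74 CPM by library, for counting error only. CON and TM of a mouse were paired, since both cultures came from the same animal, and their deviations from the group means correlated over genes with r = 0.163 (counts) and 0.1 (depth). P-values and SEs do not rest on the spread between the 2 libraries per group of a gene alone. Both tests draw the variance of a gene towards a trend over all genes, so on the depth SEs differ little between genes of similar level. The fit by condition treats 4 cultures of 2 animals as independent.

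On simulated counts of 7490 genes, 178 of 200 genes changed 4-fold were called (89%) with 9 false calls, and on simulated depths of 6836 genes 199 of 200 (99.5%) with 12. Named were all members, Adar, pathway genes past the threshold in either readout, the 2 deepest per role, the nearest profiles of Eng and the Id genes, and sites that passed in both libraries of a group or were among the 5 deepest. Markers other than the sums, Thbs1 in DESeq2, Gdf2, Bmp10, Bmp2, Inhba, Inhbb, Tgfb2, Tgfb3 and the Id2 site were named after their values were seen. The members and lists were chosen with earlier results of these data known. Coordinates and exons are those of GENCODE vM21, on the same build. Promoters came from RefSeq, and 7 of the members were matched there and searched.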

Additional observations from a re-analysis of the deposited data

How the results depend on the processing

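CON and TM of a mouse are paired. With the replicate block, genes called went from 612 to 1184 on the counts (edgeR) and from 809 to 1326 on the depth, members from 2 to 4 on the depth, and pathway genes from 3 to 8 and from 5 to 12. No member was called on the counts under any setting. DESeq2 called 362 genes, and 401 with the block, with 1 pathway gene in each. On the depth, centring gave 1442 genes, 4 members and 11 pathway genes. Fewer genes could be tested with a minimum of 10 sites. It called 539 of 3151 genes (17.1%), 1 of 9 members and 2 of 25 pathway genes. Id2, Snai2, Ltbp1, Tgfbr3 and Tob1 were not tested there. A minimum of 1 site gave 0 members (6.41% of all genes were called), and the same sites in both libraries of a mouse gave 1 of 4 tested (51.7% of all genes), where Id3 changed sign (0.026). Acvr1 changed sign with the mean of log2 depth (0.11). The cause was not tested.

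In the editing sites, a depth of at least 20 reads gave a pooled rate of 15.4% in CON, and rates of 0.10 to 0.90 gave 21.0% in CON and 14.96% in TM, with 13 passing site calls in TM in place of 21. With unlisted sites left out, a setting chosen after seeing the data, it was 19.3% in CON and 12.8% in TM. Without the Smad6 site at which nearly all reads were altered, also chosen after seeing the data, it was 15.8% in CON and 11.8% in TM. CON was above TM in each of these settings, all of which choose sites by their altered reads.

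Leaving out 1 library at a time, with the lone library of a group taken to vary like the other group, gave 436 to 574 genes and 1 to 3 pathway genes on the counts, and 412 to 847 genes, 0 to 3 members and 4 to 8 pathway genes on the depth. The members called on the depth were Tgfbr2, Smad6 and Id2 without EC1 CON and none without any other library. Within 1 mouse, 14 to 19 sites passed in CON (16.0% to 19.3%) and 7 to 14 in TM (10.97% to 15.01%). The log2 fold change of the counts crossed 0 for Acvrl1 (-0.38 to 0.26), Smad1 (-1.09 to 0.21), Smad7 (-0.35 to 0.88), Id1 (-1.04 to 0.73), Fn1 (-0.22 to 0.29), Smad2 (-0.42 to 0.035) and Smad5 (-0.53 to 0.16), none of them called. So did the depth difference of Eng (-0.21 to 0.097), Acvrl1 (-0.34 to 0.017), Smad1 (-0.082 to 0.32), Smad7 (-0.072 to 0.37), Id3 (-0.15 to 0.12), Acvr1 (-0.17 to 0.071), Fkbp1a (-0.41 to 0.19), Smad2 (-0.20 to 0.52) and Smad5 (-0.26 to 0.10).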
